A study of Mus musculus with 2 samples.

Results

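The unfolded protein response is the set of signals by which a cell adjusts the protein-folding capacity of its endoplasmic reticulum (ER), and ER-associated degradation is the route by which misfolded proteins leave that compartment. The genes described here were chosen by name, as 35 known members of these pathways, and all 35 of the 18193 genes named on the array had at least 1 probe set annotated to that gene alone. Each probe set combines several oligonucleotides against the same transcript or group of transcripts. The members were divided by role into 15 chaperones and folding enzymes, 9 sensors and effectors, and 11 degradation genes.

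The series holds 1 array of primary osteoblasts from wild-type mice and 1 array of primary osteoblasts from Slc39a13-KO mice, in which exons 6 to 8 of the zinc transporter gene Slc39a13 were removed. Both cultures were grown without added treatment from cells that collagenase and dispase released from newborn calvaria, the bones of the skull vault. Neither the labels nor the methods say how many pups, or of which sex, gave each culture. Since each genotype was read on 1 array, every value below compares these 2 arrays, has no replicate check and carries no p-value.

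Secreted and membrane proteins, collagen among them, fold in the ER with the help of chaperones such as BiP (Hspa5) and of enzymes that form disulfide bonds. When unfolded protein accumulates, the sensors IRE1α (Ern1), PERK (Eif2ak3) and ATF6 are activated. They lead to the transcription factors XBP1, ATF4 and cleaved ATF6, which induce chaperone, oxidoreductase and degradation genes. Osteoblasts secrete large amounts of collagen and rely on this system during bone formation.

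The elements through which these factors act are short, and they are shown first because many members carry them. Promoter sequences came from RefSeq (assembly GRCm38.p6), as windows of 300 bases from 250 before to 50 after the annotated start, and 31 of the 35 members had such a window. The full ER stress response element, which ATF6 and XBP1 bind together with the factor NF-Y, was searched as CCAAT, 9 bases of any kind and CCACG, on both strands. It was found in the windows of 10 of 31 members (32.3%) and of 37 of 27025 genes in all (0.137%). By role it was found in 8 of 13 chaperones and folding enzymes, 0 of 8 sensors and effectors and 2 of 10 degradation genes. Several members are known as unfolded protein response genes because of this element, so its share among them is a description of the list. CCACG alone, which the full element contains, was present in 26 of 31 members and in 35.5% of all genes.

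The stretches below hold the full element in 4 chaperone or folding genes whose signals lay close together on the 2 arrays (Hspa5, Hsp90b1, Calr and Creld2), in the folding enzyme gene Pdia6, which was higher in Slc39a13-KO, and in the ubiquitin ligase gene Syvn1. Capitals mark CCAAT and CCACG, or ATTGG and CGTGG where the element lies on the opposite strand, and each sequence runs 5′ to 3′ along the gene. They lie at chr2:34772015-34772053 (plus strand, Hspa5), chr10:86705523-86705666 (minus strand, Hsp90b1), chr8:84847065-84847103 (minus strand, Calr), chr15:88819510-88819548 (plus strand, Creld2), chr12:17266481-17266519 (plus strand, Pdia6) and chr19:6046522-6046560 (plus strand, Syvn1) of GRCm38.p6.
Hspa5: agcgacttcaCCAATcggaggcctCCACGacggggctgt
Hsp90b1: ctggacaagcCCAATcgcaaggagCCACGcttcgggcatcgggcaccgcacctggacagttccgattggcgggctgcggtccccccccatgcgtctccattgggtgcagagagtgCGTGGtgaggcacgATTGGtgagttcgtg
Calr: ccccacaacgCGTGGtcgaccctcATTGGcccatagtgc
Creld2: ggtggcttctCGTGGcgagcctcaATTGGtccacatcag
Pdia6: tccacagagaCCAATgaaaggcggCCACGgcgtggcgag
Syvn1: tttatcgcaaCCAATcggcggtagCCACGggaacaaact

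The C/EBP-ATF element bound by ATF4 and its partners was searched as TGATGNAAN on both strands. It was present in 4 of 31 members, namely Asns, Chac1, Trib3 and Herpud1, and in 4.50% of all genes. Asns, at chr6:7693214-7693242 on the minus strand, and Chac1, at chr2:119351038-119351066 on the plus strand, are shown because both belong to the ATF4 targets described further on. Capitals mark the element, which in Chac1 lies on the opposite strand.
Asns: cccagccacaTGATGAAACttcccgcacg
Chac1: cttccctgccGTTGCATCActcctgccag

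The UPR element TGACGTGG, a site for XBP1 and ATF6, was found in 1 of 31 members, Vcp, and in 0.714% of all genes. A match is a description of these letters and not a shown binding site.

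**Figure D1:**
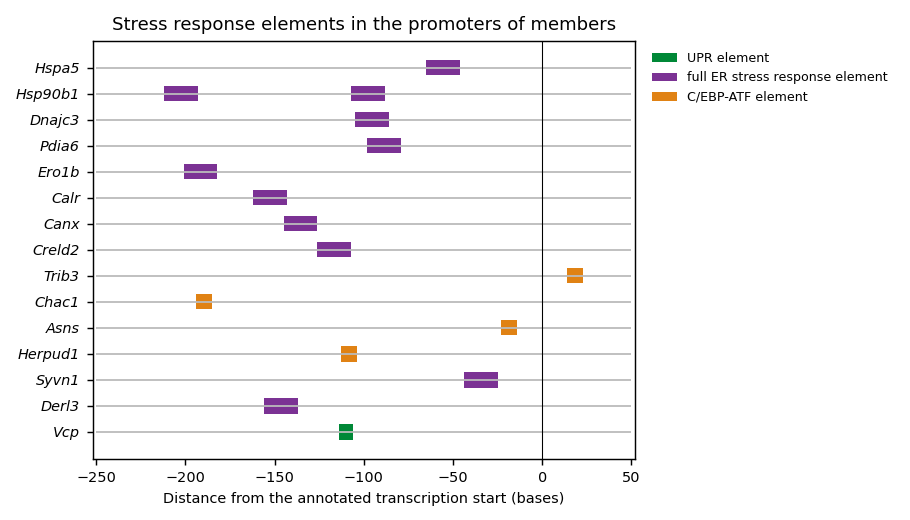
Positions of 3 stress response elements (coloured blocks) in the promoter windows of the 15 members that hold any of them; the horizontal axis is the distance in bases from the annotated transcription start, and grey lines span the window from 250 bases before to 50 after it. Full ER stress response elements (purple) occur in 10 members and 2 of them lie in Hsp90b1, whereas C/EBP-ATF elements (orange) occur in 4 and the UPR element (green) in Vcp.

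Slc39a13 itself read 1309 in the wild-type and 90.4 in the Slc39a13-KO array. This goes with the labels, although whether its probe set lies within the removed exons was not established here. Of the osteoblast markers, type I collagen (Col1a1, Col1a2) and Sparc were bright on both arrays. Alpl, the alkaline phosphatase of osteoblasts, lay below the floor of 85.1 in wild-type and at 197 in Slc39a13-KO, and Ibsp, bone sialoprotein, lay below it on both arrays. Of 7 measured osteoblast markers 3 were higher, namely Alpl, Pth1r (295 and 1534) and Dmp1. Dmp1 lay below the floor in wild-type and at 383 in Slc39a13-KO. Bglap, Spp1 and Runx2 had no probe set annotated to them alone. The summed signals of the measured markers were 81331 and 85507, and came mostly from Sparc, Col1a2 and Col1a1. The arrays also differed in markers of other cells. Among 12 chondrocyte markers all 11 that were measured were called higher in Slc39a13-KO (Snorc lay below the floor on both arrays), and the summed signal was 3678 in wild-type and 128907 in Slc39a13-KO. Of these, Acan, Col9a2, Col9a3, Col11a2, Matn1, Matn3, Cnmd and Hapln1 lay below the floor in wild-type. They counted as measured only through Slc39a13-KO, so they could not have been lower there. Col2a1 (2592 and 47019) and Sox9 (294 and 3480) lay above the floor on both arrays. Of 8 macrophage markers 6 were higher (963 and 3969 in sum), and of 3 adipocyte markers 2 were higher (369 and 1556), with Adipoq below the floor on both arrays. The same limit holds for the macrophage markers Cd68, Adgre1, C1qa, C1qb and Ctss and the adipocyte markers Pparg and Fabp4. Lyz2 lay above the floor on both arrays (255 and 2146). Of 6 smooth muscle markers 5 were lower (20641 and 3957). Among them, Myh11 and Mcam lay below the floor in Slc39a13-KO and could not have been higher there. Signals below the floor enter all these sums as 85.1. Of all measured genes 8.01% were called higher and 5.93% lower. Of the 2 measured plasma cell and B cell markers 0 were called, and Jchain, Cd79a and Cd79b lay below the floor on both arrays. Cartilage cells also secrete much protein. The part of these differences in the values below was not tested, and a change in the mixture of cells cannot be told apart from a change of RNA within a cell type.

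In the comparison of the 2 genotypes most members had similar signals. Signals are linear MAS5 units, those below the floor (the median of all signals) were raised to it, and the log2 ratio of the 2 signals, above 0 where Slc39a13-KO was higher, was averaged over the measured probe sets of a gene. All 35 members were measured, that is, above the floor in at least 1 array. A call of higher or lower needed a mean ratio of at least 2-fold and measured probe sets that all pointed the same way. Of the 35 members 5 (14.3%) were called higher in Slc39a13-KO, where 8.01% of all 12269 measured genes were, and 0 were called lower, where 5.93% of all genes were. Those higher were Pdia4, Pdia6, Eif2ak3, Sel1l and Os9. These counts depend on the scaling, since with both arrays set to the same median 1 member, Pdia4, was higher and 2, Hyou1 and Asns, were lower, beside 5.34% of all genes higher and 8.6% lower. With scaling on added poly-A control RNAs all genes moved together, to a median log2 ratio of 0.95. Under it 15 of 34 measured members were higher, beside 46.5% of all measured genes. Directions here therefore hold only for arrays scaled to the same trimmed mean. The share of members also depends on the rule. At 1.5-fold 5 of 35 were higher, beside 19.4% of all genes, and with no floor 6 of 35, beside 16.9%.

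Signals below the floor limit 4 members (Derl3, Ero1b, Ern1 and Sel1l), whose differences may be larger than given. Of the other 31 members 25 (80.6%) lay within 1.5-fold, against 69.4% of the 8932 genes without such a limit. Those genes were not matched to the members in signal. The median log2 ratio of the members was -0.02, and that of all measured genes was 0.11. It was -0.02 for chaperones and folding enzymes, -0.20 for sensors and effectors and 0.00 for degradation genes. The members' ratios ran from -0.99 (Hyou1) to 1.93 (Pdia4), with 16 above 0 and 19 below it, and 12 lay above the median of all genes. Of 23 members with more than 1 measured probe set, 9 had probe sets on opposite sides of 0, where 39.4% of all such genes did, and the median SD between probe sets was 0.29 for the members and 0.34 for all genes.

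**Figure D2:**
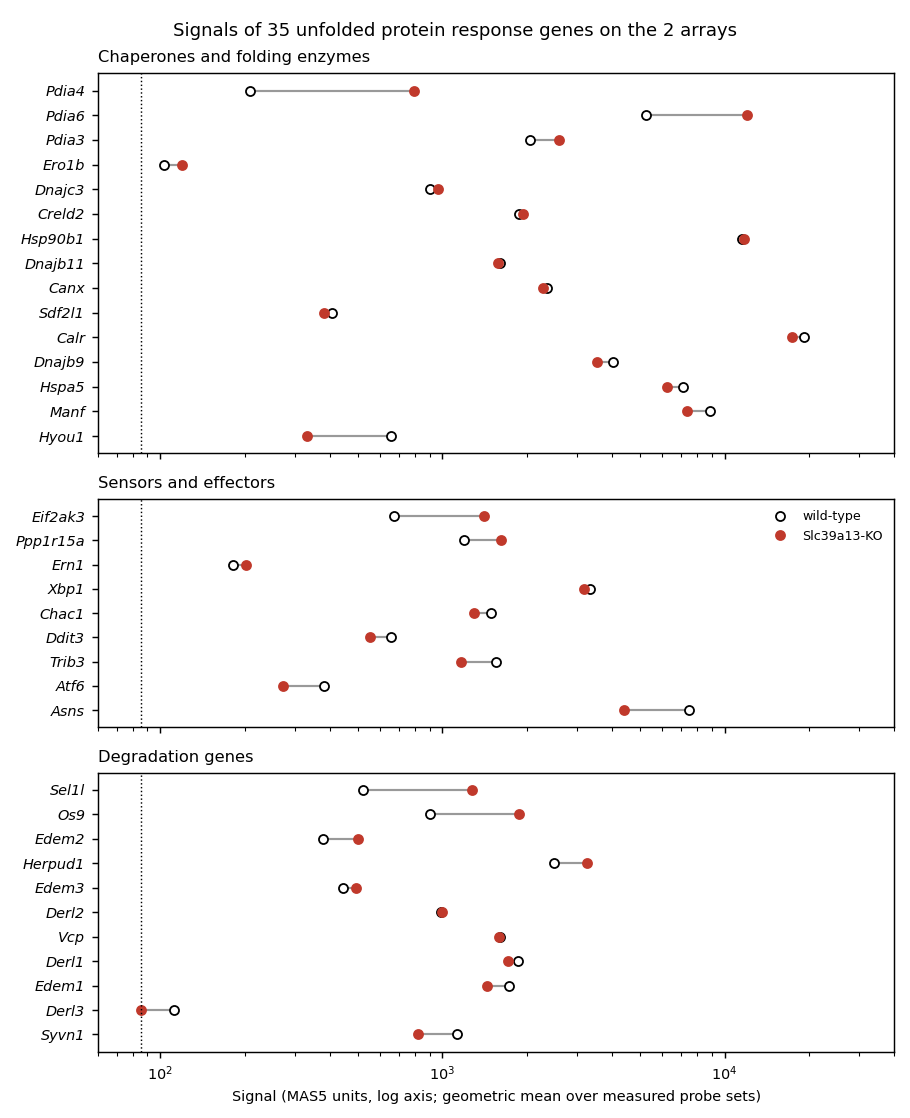
Signals of the 35 members (horizontal axis, MAS5 units, log axis) in the wild-type array (open circles) and the Slc39a13-KO array (red circles), each the geometric mean over the measured probe sets of a gene; the dotted line is the floor of 85.1. Most pairs of circles lie close together, with the widest gap for Pdia4 (207 and 791).

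Among the chaperones and folding enzymes 2 of 15 (13.3%) were higher in Slc39a13-KO, beside 8.01% of all measured genes. Both belong to the protein disulfide isomerase family. Pdia4 (ERp72), an oxidoreductase that forms and rearranges disulfide bonds, read 207 in wild-type and 791 in Slc39a13-KO. It was 3.81-fold higher, on 1 measured probe set, since the second one stayed under the floor on both arrays (17.3 and 42.4). Pdia6 (P5), an oxidoreductase that works with BiP, had signals of 5260 and 11965. It was 2.27-fold higher, again on 1 measured probe set.

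The third isomerase of the list, Pdia3 (ERp57), which folds glycoproteins bound to calreticulin and calnexin, read 2037 and 2594, for a mean log2 ratio of 0.35 (SD 0.13, 2 probe sets). It lay on the same side and was not called. Ero1b, an oxidase that recharges these enzymes, was dim. Its probe set above the floor on both arrays read 149 and 186. The other 2 of its probe sets lay below the floor in wild-type and close above it in Slc39a13-KO (104 and 88.3).

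BiP (Hspa5), the central ER chaperone and the usual readout of ER stress, was read by 3 probe sets with signals of 22613 and 21175, 14713 and 12792, and 1083 and 896, wild-type first. All 3 were slightly lower in Slc39a13-KO, with a log2 ratio of -0.19 (SD 0.09). Grp94 (Hsp90b1), the Hsp90 of the ER, had signals of 11564 and 11745 over 2 probe sets of opposite sign, with a log2 ratio of 0.02 (SD 0.45). Neither was called.

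The lectin chaperone calreticulin (Calr), which holds newly made glycoproteins, read 19051 and 17304, with a log2 ratio of -0.14 (SD 0.23, 3 probe sets). Its membrane-bound relative calnexin (Canx) had signals of 2353 and 2280. Its 3 probe sets disagreed, with log2 ratios of -0.68, -0.19 and 0.73, so the mean of -0.05 hides a wide technical spread.

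The J-domain partners of BiP also lay close together on the 2 arrays. ERdj4 (Dnajb9), a sensitive XBP1 target, had signals of 4016 and 3540. ERdj3 (Dnajb11), which binds unfolded chains, had 1601 and 1580. P58IPK (Dnajc3), which also restrains PERK, had 901 and 962 over 5 probe sets, with ratios from -0.40 to 0.51.

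Of the small stress-induced ER proteins, Sdf2l1, a partner of ERdj3, had signals of 406 and 380. Creld2, a secreted stress marker, had 1871 and 1925. Manf, a secreted protein that binds BiP, had 8879 and 7383. All 3 lay within 1.5-fold.

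Hyou1 (Grp170), which exchanges the nucleotide on BiP, was furthest toward wild-type of the members not limited by the floor. It read 659 and 331, with a log2 ratio of -0.99 (SD 0.99), just short of 2-fold, and its 2 measured probe sets differed widely. The dimmer read 310 and 96.0, a 3.23-fold difference, and the brighter read 1400 and 1141, a 1.23-fold difference. The value therefore rests on the dimmer of these 2. Another probe set lay below the floor on both arrays and read higher in Slc39a13-KO (38.2 and 71.5).

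**Figure D3:**
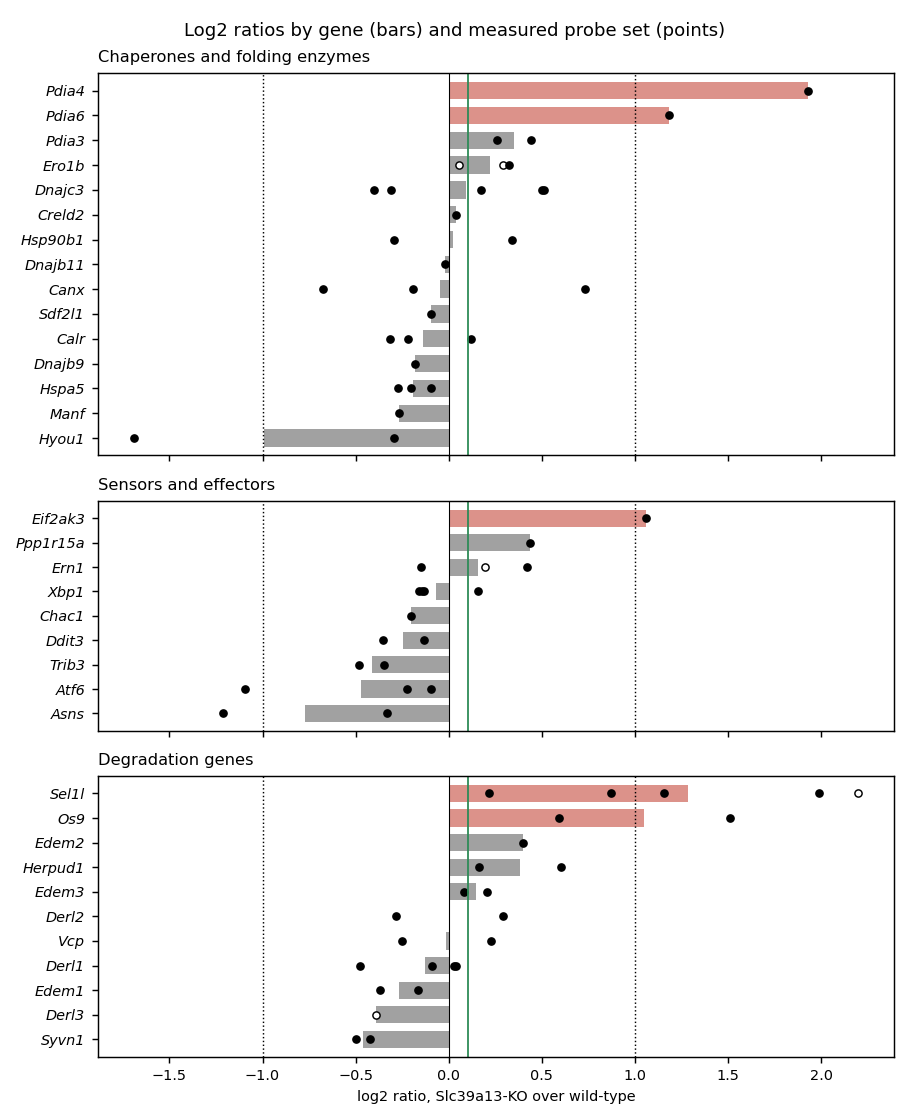
Log2 ratios (horizontal axis, above 0 where Slc39a13-KO was higher) for the 35 members, with bars for the mean of a gene and points for its measured probe sets. Open points are limits on the size of a difference, where 1 of the 2 signals was raised to the floor, red bars mark calls, dotted lines mark 2-fold and the green line the median of all genes (0.11); the points of Sel1l run from 0.22 to at least 2.20, and Hyou1 stops just short of 2-fold lower.

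Of the 3 sensors PERK was higher and the others were not called. PERK (Eif2ak3), the kinase that phosphorylates eIF2α and so slows translation, had signals of 673 and 1402. It was 2.08-fold higher on 1 measured probe set, barely past the threshold, and its other 2 probe sets lay below the floor on both arrays.

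IRE1α (Ern1), the nuclease that splices Xbp1 mRNA, read 181 and 202, with a log2 ratio of 0.16 (SD 0.29, 3 measured probe sets). Its brightest probe set read 448 and 600. ATF6, a membrane-bound factor freed by cleavage, read 379 and 273, with a log2 ratio of -0.47 (SD 0.54). Its 3 probe sets all lay below 0, from -1.10 to -0.10, and the gene was not called.

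Of the 6 effectors 0 were called, beside 8.01% of all measured genes higher and 5.93% lower, and 5 effectors had a ratio below 0. Xbp1, the factor made from the spliced mRNA, had signals of 3341 and 3183 over 4 probe sets, with a log2 ratio of -0.07 (SD 0.15). These values count the gene's mRNA as a whole and do not tell its spliced form. CHOP (Ddit3), the factor linked to cell death in prolonged stress, read 658 and 556, with a log2 ratio of -0.24 (SD 0.16).

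Trib3, a pseudokinase that CHOP and ATF4 induce, read 1546 and 1161, with a log2 ratio of -0.41 (SD 0.10, 2 probe sets of the same sign). Chac1, an enzyme that degrades glutathione, had signals of 1484 and 1290. Asns (asparagine synthetase) had 7494 and 4383, a log2 ratio of -0.77 (SD 0.62), with probe sets 1.26-fold and 2.32-fold lower. These 3 genes, whose promoters hold the C/EBP-ATF element, all lay on the lower side in Slc39a13-KO without being called, while Herpud1, which also holds it, lay above 0.

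The exception in direction was Gadd34 (Ppp1r15a), the phosphatase subunit that reverses the phosphorylation of eIF2α. It read 1194 and 1614, with a log2 ratio of 0.43, and was not called.

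Among the 11 degradation genes, 2 partners in the same recognition complex (18.2%) were higher, beside 8.01% of all measured genes. Sel1l, the adaptor that ties the ubiquitin ligase Hrd1 to its lectins, was read by 5 probe sets. In wild-type and Slc39a13-KO, in that order, they read 2809 and 3268, 878 and 1957, 567 and 1036, 329 and 1303, and, below the floor in wild-type, 56.8 and 391. All 5 were higher in Slc39a13-KO, but by unlike amounts. The brightest differed by 1.16-fold and the dimmest by at least 4.59-fold, and their mean log2 ratio was at least 1.29 (SD 0.81). What sets these probe sets of Sel1l apart was not tested.

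Os9, a lectin that reads the trimmed sugars of misfolded glycoproteins, had signals of 903 and 1871. Its log2 ratio was 1.05 (SD 0.65), and both of its probe sets were higher, by 1.51-fold (1583 and 2388) and 2.85-fold (515 and 1467).

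Hrd1 (Syvn1), the ubiquitin ligase that Sel1l binds, lay on the other side. Its signals were 1129 and 821, a log2 ratio of -0.46 (SD 0.05, both probe sets below 0), and it was not called. The Derlins, membrane proteins that guide substrates out of the ER, were close for Derl1 (1859 and 1704) and Derl2 (991 and 994). Derl3 was dim, with 112 in wild-type and a signal below the floor in Slc39a13-KO, so its difference could be given only as at least 1.31-fold.

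Herpud1, a scaffold of the Hrd1 complex that ER stress strongly induces, read 2491 and 3248, with a log2 ratio of 0.38 (SD 0.31). The mannosidase-like Edem proteins, which mark glycoproteins for disposal, lay within 1.5-fold. Edem1 had 1726 and 1433, Edem2 had 379 and 500, and Edem3 had 445 and 492. Vcp (p97), the ATPase that pulls substrates into the cytosol, had 1597 and 1584, with its 2 probe sets on opposite sides of 0.

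For the 10 members with the full ER stress response element the median log2 ratio was -0.01, with a range from -0.46 to 1.19, and 1, Pdia6, was called higher. For the 21 members with a promoter window and no such element the median was 0.00, with a range from -0.77 to 1.93, and 4 were called higher. Of all measured genes 8.01% were called higher. Derl3 and Ero1b in the first group, and Sel1l and Ern1 in the second, have ratios limited by the floor, so these ranges may be wider. No difference between these 2 groups of members was tested.

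Other genes of the pathways, which are not members, were listed by function. Of 74 measured, 1 (1.35%) was called higher and 5 (6.76%) lower, with a median of -0.03. Of all measured genes 8.01% were higher and 5.93% lower. The gene higher was Mbtps1, the Site-1 protease that cleaves ATF6 and other membrane-bound factors, with signals of 592 and 1998. Its log2 ratio was 1.76 (SD 1.24), from 0.88 to 2.63 over 2 probe sets. Of the other ER folding and quality control genes 0 of 21 were called and 15 had a ratio above 0 (median 0.20), among them P4hb, the disulfide isomerase subunit of prolyl 4-hydroxylase, with 17716 and 22923. The widest difference of that list went the other way, in Ero1a, the oxidase that recharges disulfide isomerases, with 1948 and 1080 (log2 ratio -0.85, SD 0.53, 3 probe sets all below 0). Of the other degradation genes 0 of 16 were called, with a median of -0.18.

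The genes called lower were all in the list of other ATF4 targets, where 5 of 23 (21.7%) were lower and 0 higher, with a median of -0.35 and 17 ratios below 0. Of all measured genes 5.93% were lower, or 8.6% with both arrays set to the same median. Nupr1, a stress-induced chromatin protein, had signals of 13747 and 3284, a 4.19-fold difference with 2 probe sets in close accord (SD 0.01). Vegfa, the endothelial growth factor, was 2.73-fold lower, Cth, which makes cysteine, 2.38-fold, and Ddit4, an inhibitor of mTORC1, 2.16-fold lower. Stc2, a secreted glycoprotein, was at least 2.17-fold lower. Atf4 itself read 5961 and 4411, with a log2 ratio of -0.43 (SD 0.71), and was not called. Several of these genes also respond to other signals, hypoxia and growth factors among them.

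Chaperones outside the ER were listed for comparison. Of 11 measured cytosolic heat shock genes 1 (9.09%) was lower, Hspb1, a small heat shock protein, with signals of 7160 and 1557. The median was -0.19. Of 7 mitochondrial chaperones and proteases 1 (14.3%) was lower, the protease Lonp1 with 1649 and 757, and the median was -0.35. Of all measured genes 5.93% were lower. In smooth muscle markers, among the cells in which Hspb1 is abundant, 5 of 6 were lower in the same array, and their part in the Hspb1 value was not tested.

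**Figure D4:**
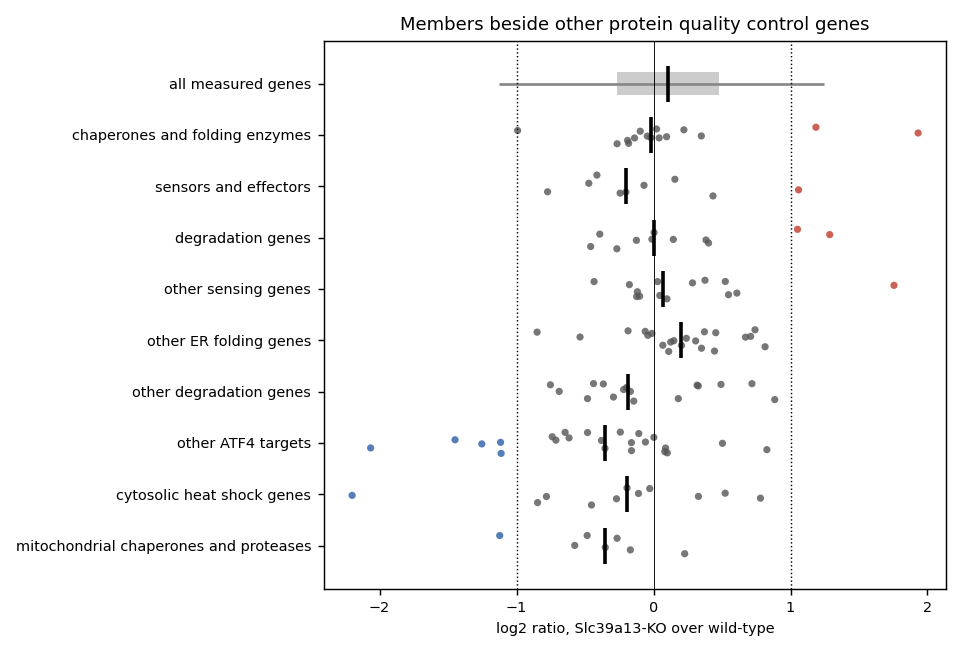
Log2 ratios (horizontal axis, above 0 where Slc39a13-KO was higher), with 1 point per measured gene, calls in red (higher) or blue (lower), and list medians as black bars; the top line shows the 5th to 95th percentile of all 12269 measured genes and its grey box the middle 50%. The 3 groups of members lie around 0 apart from 5 red points, and 5 of 23 other ATF4 targets are blue.

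The calls of the 5 members higher were unequally firm. Over 7 other ways of scaling, setting the floor and choosing probe sets, all 35 values of these 5 genes were above 0. The scaling on added control RNAs was left out of these. A call already needed all measured probe sets above 0, so a higher floor or a choice among them could not turn the sign. Pdia4, Pdia6 and Eif2ak3 had 1 measured probe set, so choosing among probe sets gave the same value again. Pdia4 was called higher under all 10 alternatives, and its log2 ratio ran from 1.11 to 1.93 over those 7 ways. Pdia6 and Os9 were called under 8 of 10, and Sel1l and Eif2ak3 under 6 of 10. Of the 10, the 1.5-fold rule and the 2-fold rule without sign agreement could not undo a call. Control RNA scaling moved all genes up. With median scaling only Pdia4 kept its call. Eif2ak3 also lost its call with quantile scaling, a 30th-percentile floor or no floor. Sel1l also lost it with a 70th-percentile floor, its brightest probe set or probe sets without shared-transcript suffixes. The log2 ratio of Sel1l was 0.22 with its brightest probe set alone, and that of Eif2ak3 was 0.37 when the 30th percentile served as the floor, where a dimmer probe set with the opposite sign enters. Hyou1 was called lower under 4 of 10 alternatives, and Asns under 2. The log2 ratio of Hyou1 was -1.69 when only probe sets without shared-transcript suffixes were used. It was -0.36 with a 30th-percentile floor or no floor, and -0.29 with a 70th-percentile floor or the brightest probe set.

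**Figure D5:**
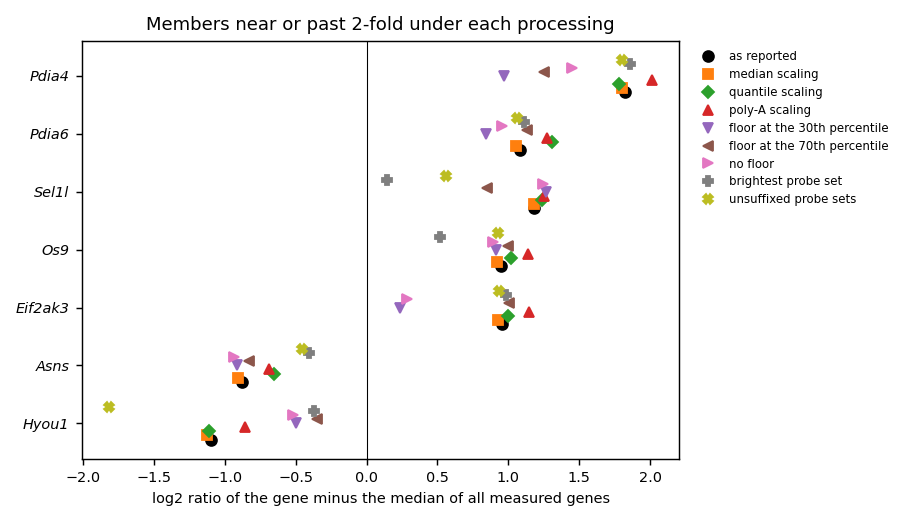
Log2 ratio of 7 members minus the median of all measured genes (horizontal axis) as reported (black circles) and under 8 other scalings, floors and choices of probe set (coloured symbols). Pdia4 and Pdia6 stay well to the right under each of these, whereas Sel1l and Os9 move toward 0 with the brightest probe set and Eif2ak3 with a lower floor or none.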

How the data were processed

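RNA of 1 wild-type and 1 Slc39a13-KO culture was hybridised to Affymetrix whole-genome mouse arrays. The deposited values are linear signal intensities of 45101 probe sets, which the authors computed with MAS5 per the labels (no version is given there). The study's methods name gcRMA for its own analysis. The 2% trimmed mean was 500.003 on both arrays, so a difference in total mRNA cannot be seen, and the number of arrays limits the precision. The SD given with a ratio is between probe sets and is technical.

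By the platform annotation 34945 probe sets had a single gene symbol, 932 had several and 9160 had none, and 34741 of the first kind were matched by gene ID to RefSeq (GRCm38.p6). The 64 control probe sets were left out. The floor was the 50th percentile of all signals. Steps were run in Python 3.11.15 with pandas 2.3.3 and numpy 2.4.6. The calling step was checked on simulated data whose changes were far larger than 2-fold, so calls near 2-fold were not checked. All members were described, and of the other pathway and chaperone lists the called genes, up to 6 in each direction. P4hb, Ero1a and Atf4 are named beside these and were chosen after their values were seen. Of the cell type markers only some were named, called or not, and the rest were given as counts and sums. The members and lists were chosen with earlier results of these data known. With 1 array per genotype no test was made. Alternatives covered the scaling, floor, choice of probe sets and call rule.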

Additional observations from a re-analysis of the deposited data

How the results depend on the processing

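Percentages in brackets are the shares of all measured genes called in the same direction. The members called higher were 5 as reported (8.01%), 1 with median scaling (5.34%) and 15 with scaling on the poly-A control RNAs (46.5%). They were 3 with a floor set at the 30th percentile (10.3%) and 3 with the brightest probe set (8.68%). At 1.5-fold they were 5 of 35 (19.4%), and with no floor 6 of 35 (16.9%). Quantile scaling gave 4 of 35 (6.32%), a 70th-percentile floor 4 of 33 (5.79%) and only unsuffixed probe sets 4 of 30 (8.57%). Without the rule on sign they were 5 of 35 (8.07%). The members called lower were 0 as reported (5.93%), 2 with median scaling (8.6%) and 2 at 1.5-fold (Hyou1, Asns, 12.1%). There was 1 each with quantile scaling (Hyou1, 6.98%), a 30th-percentile floor (Derl3, 6.54%), no floor (Derl3, 11.3%) and only unsuffixed probe sets (Hyou1, 5.99%). The number of genes measured differed between these settings. The genes called higher were 983 of 12269 as reported, 654 of 12239 with median scaling and 5988 of 12881 with poly-A scaling. They were 1596 of 15540 and 506 of 8738 with floors at the 30th and 70th percentiles. With no floor they were 3077 of 18193, and at 1.5-fold 2378 of 12269. The genes called lower were 727 of 12269 as reported and 222 of 12881 with poly-A scaling. They were 438 of 8738 with a floor at the 70th percentile, 2049 of 18193 with no floor and 1480 of 12269 at 1.5-fold. The median log2 ratio of the members was -0.26 with median scaling (all genes -0.11), 0.95 with poly-A scaling (all genes 0.95) and -0.095 with the brightest probe set. With median and poly-A scaling the medians were -0.26 and 0.99 for chaperones and folding enzymes, -0.45 and 0.83 for sensors and effectors, and -0.24 and 1.02 for degradation genes. That scaling takes the poly-A control RNAs as equal, although 24 of their 24 probe sets read lower in Slc39a13-KO (median -1.02 on the log2 scale), and the cause was not tested. Of the log2 ratios of single members under the alternatives, 211 moved by no more than the SD between the gene's probe sets and 61 by more. For genes with a single measured probe set the median SD of all genes, 0.34, was used. The tally is no measure of stability. For a bright gene with 1 probe set, such as Dnajb9, the floors and probe set choices returned the same value, so it could not move. With poly-A scaling, where all genes shifted together, all 34 measured members moved by more. Of the called members 0 turned sign, which the call rule fixed in advance for a higher floor and for choices among measured probe sets. No paired analysis was possible because each genotype has 1 array, and for the same reason no array could be left out. Ratios of dim members (Derl3, Ero1b, Ern1) are limited by the floor.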
